A study of Mus musculus with 12 samples.

Results

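Arginine sits at a branch point between immune and tumor metabolism, and 7 genes that make, move or consume it were followed in whole subcutaneous tumors of the mouse renal carcinoma line Renca. The 7 were chosen by name: the arginases Arg1 and Arg2, the inducible nitric oxide synthase Nos2, the arginine-building enzyme Ass1, the polyamine enzyme Odc1 and the arginine transporters Slc7a1 and Slc7a2. Their identifiers in the table are ENSMUSG00000019987, ENSMUSG00000021125, ENSMUSG00000020826, ENSMUSG00000076441, ENSMUSG00000011179, ENSMUSG00000041313 and ENSMUSG00000031596, in this order. Each matched 1 row, so 7 of the 14496 genes in the table are described. RNA came from 12 tumors in BALB/C mice, all taken 14 days after the cells were injected. In the IK group, 6 subcutaneous tumors had grown while a separate tumor was present in the kidney, and in the SC group 6 had grown with no kidney tumor. Both groups carried the same subcutaneous Renca tumor, tumor cells and stroma were lysed together, and no drug or genetic change is named in the labels. They do not name the cells that formed the kidney tumor. The series asks how the tumor in the kidney, which it calls immunosuppressive, relates to the tumor under the skin. Whether the 12 tumors are from 12 separate mice is not stated, and a p-value therefore reflects only how much these libraries vary.

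Arginase splits arginine into ornithine and urea. Arg1 is the cytosolic form, best known from liver and, in mice, from alternatively activated and suppressive myeloid cells, and Arg2 is the mitochondrial form. Nitric oxide synthases turn arginine into nitric oxide and citrulline, and Ass1 with Asl can rebuild arginine from citrulline. Removal of arginine by myeloid cells is a known way of restraining T cells in mouse tumors.

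Each tumor gave 53312559 to 66142468 reads, and the values below are log2 CPM, that is, reads scaled to library size on a log2 scale. The summed level of 6 epithelial and renal markers (Krt8, Krt18, Epcam, Cdh16, Pax8 and Cdh1) lay between 2359 and 2965 CPM in all 12 tumors, so epithelial markers were present in every library. IK replicate 2 and SC replicate 6 stood apart in lymphocyte genes. Summed over 8 T cell markers, 5 IK tumors lay at 21.4 to 33.3 CPM and replicate 2 at 109 CPM, while 5 SC tumors lay at 55.0 to 114 CPM and replicate 6 at 28.4 CPM. Results that rest on these tumors are given with and without them. At an unadjusted p under 0.05 (limma), 7 of 8 T cell, 5 of 5 NK cell and 2 of 4 fat cell markers were lower with an IK tumor. At the same threshold, 1 of 4 granulocyte markers was lower and 3 of 4 red cell markers were higher. The median log2 differences over these lists were -1.22, -1.79, -1.33, -0.27 and 0.31. None of these markers passed the adjusted threshold (smallest adjusted p = 0.431, limma), and their part in the results was not tested. In IK and then SC tumors, NK cell markers ran from 5.03 to 47.5 and from 9.61 to 63.6 CPM, endothelium from 123 to 189 and from 119 to 238, and fibroblasts from 4622 to 12240 and from 4770 to 15600. Fat cell markers ran from 6.14 to 23.9 and from 9.02 to 43.3 CPM, and red cell markers from 33.4 to 47.9 and from 26.9 to 44.5. Of all 14496 genes, 0% passed an adjusted p of 0.05 (limma with Benjamini-Hochberg adjustment), whereas 834 higher genes (5.75%) and 843 lower genes (5.82%) had an unadjusted p under 0.05. Without IK replicate 2, 47 higher and 207 lower genes passed. In 0.269% of genes (39) all 6 IK tumors lay above all 6 SC tumors.

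The promoters of Ass1 and Slc7a1 are shown because the levels of these genes are set against each other in the results. RefSeq's table (build GRCm38.p6) held promoters of 3 of the 7 genes, Ass1, Slc7a1 and Odc1, and each line gives the 250 bases before a transcript start. Capitals mark the only matches to the 7 motifs searched on both strands.
Ass1, chr2:31470020-31470269, plus strand: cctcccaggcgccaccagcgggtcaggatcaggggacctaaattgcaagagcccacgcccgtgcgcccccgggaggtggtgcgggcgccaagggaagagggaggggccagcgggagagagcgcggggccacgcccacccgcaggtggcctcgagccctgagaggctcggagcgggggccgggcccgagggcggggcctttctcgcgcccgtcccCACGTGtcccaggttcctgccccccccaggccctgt
Slc7a1, first start, chr5:148399905-148400154, minus strand: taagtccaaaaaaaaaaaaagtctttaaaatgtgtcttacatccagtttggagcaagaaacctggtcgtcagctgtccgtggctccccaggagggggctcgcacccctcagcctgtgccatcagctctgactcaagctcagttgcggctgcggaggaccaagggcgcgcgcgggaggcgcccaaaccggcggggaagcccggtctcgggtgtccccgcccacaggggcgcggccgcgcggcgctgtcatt
Slc7a1, second start, chr5:148392816-148393065, minus strand: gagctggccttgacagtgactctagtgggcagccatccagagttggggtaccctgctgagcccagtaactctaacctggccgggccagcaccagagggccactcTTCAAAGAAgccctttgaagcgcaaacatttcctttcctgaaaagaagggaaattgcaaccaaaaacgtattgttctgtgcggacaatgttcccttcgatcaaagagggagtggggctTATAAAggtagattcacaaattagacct

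The motifs were NF-kB, the STAT motif TTCNNNGAA and its form with a spacing of 4, the E-box CACGTG, the hypoxia core ACGTG, C/EBP TTGCNNAA and the TATA box TATAAA. Ass1 held an E-box that begins 36 bases before its start, and the hypoxia core lies inside the same letters. An E-box occurred in 6.02% and the hypoxia core in 16.6% of 32851 windows of this length. The second Slc7a1 start had a STAT match with a spacing of 3 at 146 bases (7.02% of windows) and a TATA box at 28 bases (12.4% of windows). The first Slc7a1 start and Odc1 held none of these letters in this window. The motifs with no match in any of the 4 windows occurred in 1.41% (NF-kB), 5.85% (STAT with a spacing of 4) and 9.56% (C/EBP) of all windows. GC content was 75.6% for Ass1, 62.4% and 50% for the Slc7a1 starts and 80% for Odc1, against a median of 52.4% over all windows.

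Of the 7 genes, 0 passed the adjusted threshold, and Arg2 and Arg1 had an unadjusted p under 0.05, both higher with an IK tumor (5.75% of all genes). Arg1 is in the table only through IK tumors, so its share in this count is no support. Among the consumers of arginine, Arg2 gave the clearest separation of the groups. Its log2 CPM was 3.89, 3.71, 3.68, 3.92, 3.75 and 3.70 in IK replicates 1 to 6 and 3.37, 3.26, 3.63, 3.57, 3.50 and 3.35 in SC replicates 1 to 6. Every IK tumor lay above every SC tumor (as in 0.269% of all genes), by a narrow margin between IK replicate 3 and SC replicate 3. The mean was 3.78 ± 0.10 with an IK tumor and 3.45 ± 0.14 alone (SD, n = 6 each), a log2 difference of 0.33 (standard error 0.07, 95% interval 0.17 to 0.48), or 1.26-fold. By exact permutation of the 12 tumors the difference had p = 0.0022, the smallest this design can give. It did not pass over all genes (limma, adjusted p = 0.431), where it ranked 11 of 14496 by p. The adjusted p was 0.0497 without IK replicate 2 and 0.194 without SC replicate 6 (limma), at differences of 0.34 and 0.31.

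Arg1 was the scarcest of the enzymes and the gene with the widest difference. The values were 1.72, -0.07, 0.03, 0.51, -1.46 and 1.97 log2 CPM in IK replicates 1 to 6. In SC replicates 1 to 6 they were -0.76, -2.89, -1.54, -0.64, -1.38 and -0.36 log2 CPM. Of the 6 IK tumors, 5 lay above all SC tumors, and replicate 5 lay inside the SC range. These levels rest on 22 to 260 reads with an IK tumor and on 8 to 41 reads alone. The count of 8 in SC replicate 2 has an exact 95% Poisson interval of 3.45 to 15.8 reads, which covers counting error only.

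The mean log2 CPM of Arg1 was 0.45 ± 1.27 in IK and -1.26 ± 0.91 in SC tumors (SD, n = 6 each). The log2 difference was 1.71, a 3.27-fold higher level, and is given without a test for the reason that follows. With single tumors left out, the difference ran from 1.39 (without SC replicate 2) to 2.09 (without IK replicate 5). On a log2(CPM + 1) scale, which damps low genes, it was 0.80. Every gene of the table had at least 1 CPM in at least 2 tumors, and Arg1 reached this with 4 IK tumors and 0 SC tumors. It is 1 of 33 genes of the table that did so through the IK group alone, so such a gene had to differ and its difference is given as a value. Arg1 was also the only 1 of the 7 that missed a filter of 1 CPM in 6 of 12 tumors.

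The summed level of 8 macrophage markers was 3398 to 4644 CPM with an IK tumor and 3248 to 4432 CPM alone. For granulocytes, 4 of 9 markers were in the table (S100a8, S100a9, Csf3r and Cxcr2), with sums of 23.0 to 46.0 CPM and 25.3 to 53.5 CPM. All 4 had a log2 difference below 0 (median -0.27). The other 5, Retnlg, Ly6g, Mmp8, Ngp and Camp, were not analysed here. IK replicates 1 and 6, highest in Arg1, had granulocyte sums of 27.4 and 26.6 CPM and macrophage sums of 3521 and 3598 CPM, inside the range of the other tumors. In whole tumors, more cells of a type and more RNA per cell cannot be told apart.

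**Figure D1:**
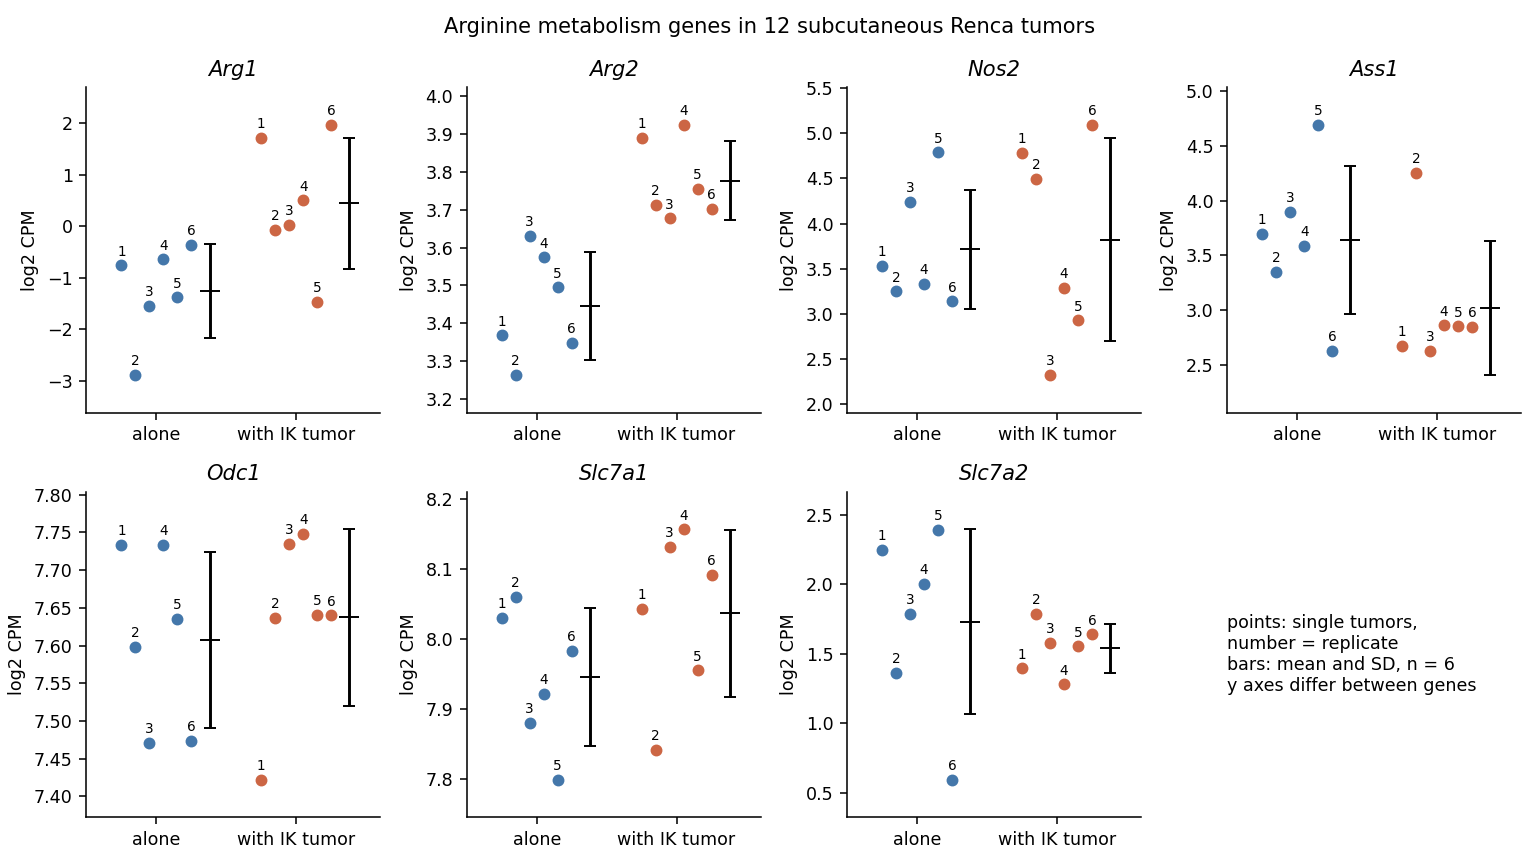
Log2 CPM (y axis, a separate scale for each gene) of the 7 genes in SC tumors (alone, blue) and IK tumors (orange), with 1 point and replicate number per tumor and the mean with its SD as bars. All 6 IK points for Arg2 lie above the SC points, 5 of 6 do for Arg1, and the group ranges overlap for the other 5 genes. For Ass1, 5 of 6 IK points lie below 5 of 6 SC points.

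Nos2, which competes with arginase for arginine, varied strongly between tumors of both groups. IK replicates 1 to 6 had 4.78, 4.49, 2.32, 3.29, 2.93 and 5.09 log2 CPM, and SC replicates 1 to 6 had 3.53, 3.25, 4.24, 3.33, 4.79 and 3.14. The groups overlapped throughout, with IK replicates 6 and 3 as the highest and the lowest of all 12. The log2 difference was 0.10 (95% interval -0.92 to 1.13, limma, adjusted p = 0.933), and it took the other sign without IK replicate 1, 2 or 6 or SC replicate 6, at -0.09, -0.03, -0.15 and -0.01. As a fold the interval runs from 0.529 to 2.18, so these tumors leave a wide range of group differences possible. Within groups its spread was larger than that of 99.3% of the 1000 genes nearest in mean level.

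IK replicates 6 and 1 were the highest tumors for Arg1. For Nos2 the order from the top was IK replicate 6, SC replicate 5 and IK replicate 1, and SC replicate 5 was among the lower tumors for Arg1. Compared within each tumor, Nos2 stood 3.37 ± 0.91 log2 units above Arg1 with an IK tumor and 4.98 ± 1.19 alone (SD, n = 6 each). The log2 difference of this ratio was -1.61, or 3.05-fold lower with an IK tumor, and that of the Arg1 to Arg2 ratio was 1.38. Both ratios carry the selection of Arg1 by the IK tumors described above, so they are given as values with no test.

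Ass1, which joins citrulline to aspartate on the way back to arginine, was lower in most IK tumors. Its log2 CPM was 2.67, 4.25, 2.63, 2.86, 2.85 and 2.85 in IK replicates 1 to 6 and 3.70, 3.35, 3.90, 3.59, 4.69 and 2.63 in SC replicates 1 to 6. Replicate 2 of the IK group lay far above its group, and replicate 6 of the SC group was the lowest of the 12. Group means were 3.02 ± 0.61 and 3.64 ± 0.68 (SD, n = 6 each), a log2 difference of -0.62 (95% interval -1.34 to 0.10), or 1.54-fold lower. This did not pass (limma, adjusted p = 0.464, exact permutation p = 0.13). It was -0.87 without IK replicate 2 (limma, adjusted p = 0.0963, exact permutation p = 0.022) and -0.82 without SC replicate 6 (limma, adjusted p = 0.2, exact permutation p = 0.0498). It was -0.41 without SC replicate 5.

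The same tumors were high in Ass1 and in the 8 T cell markers. In SC replicates 1 to 6 the marker sums were 71.4, 55.0, 82.2, 62.8, 114 and 28.4 CPM, which is the order of Ass1 from the lowest to the highest tumor. Within the SC group the correlation of Ass1 with the log2 marker sum was Pearson r = 0.98 (exact permutation p = 0.0028, adjusted p = 0.017) and Spearman rho = 1 (exact permutation p = 0.0028, adjusted p = 0.017). Without the 2 tumors farthest in Ass1, replicates 5 and 6, r was 0.99. Within the IK group it was r = 0.94 (exact permutation p = 0.062, adjusted p = 0.14) with rho = 0.6, and it rested on replicate 2, with r = -0.41 once the 2 tumors farthest in Ass1 were left out. The tumors were spread unevenly in Ass1, so no coefficient over all 12 is given. A split at the widest gap in Ass1 itself left 6 tumors up to 2.86 and 6 from 3.35 log2 CPM. A gap of similar width, from 4.25 to 4.69, lies inside the upper 6, so separate clusters are not shown. The upper 6 were SC replicates 1 to 5 and IK replicate 2. In them r was 0.97 (exact permutation p = 0.0014, adjusted p = 0.017), which shares 5 tumors with the SC result and is not independent of it. In the lower 6 r was -0.08 (exact permutation p = 0.91), but these cover only 2.63 to 2.86 log2 CPM, where a relation could hardly show. Because the split was drawn from the Ass1 values, the coefficients in the upper and lower 6 are a description. The relation with T cell markers was picked after its values were seen, and adjustment covers the 12 relations of Ass1 computed within groups and within the upper and lower 6. Other marker sums ran in a similar order. In SC replicates 1 to 6, NK cell sums were 26.5, 23.1, 32.5, 21.9, 63.6 and 9.61 CPM. Macrophage sums there were 3742, 3488, 4432, 4012, 4408 and 3248 CPM. IK replicate 2 had the highest sums of its group for both, at 47.55 and 4644 CPM. No coefficient was computed for them, and the part of T cells or of any other cell type in the Ass1 values was not tested.

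Both transporters carry arginine across the cell membrane, Slc7a1 in most growing cells and Slc7a2 as a form that is induced in activated macrophages. Slc7a1 had 8.04, 7.84, 8.13, 8.16, 7.95 and 8.09 log2 CPM in IK replicates 1 to 6. In SC replicates 1 to 6 it had 8.03, 8.06, 7.88, 7.92, 7.80 and 7.98. The groups overlapped, with a log2 difference of 0.09 (95% interval -0.04 to 0.22, limma, adjusted p = 0.516). The upper end of the interval is 1.16-fold. Without IK replicate 2 the difference was 0.13 (limma, adjusted p = 0.156, exact permutation p = 0.043). Without SC replicate 6 it was 0.10 (limma, adjusted p = 0.376, exact permutation p = 0.186). With single tumors left out, the exact permutation p ran from 0.043 to 0.33.

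Slc7a2 had 1.39, 1.78, 1.58, 1.28, 1.55 and 1.64 log2 CPM in IK replicates 1 to 6. In SC replicates 1 to 6 it had 2.24, 1.36, 1.78, 2.0, 2.39 and 0.59. The SC tumors spread on both sides of the IK tumors, with an SD of 0.66 against 0.18. The log2 difference was -0.19 (95% interval -0.75 to 0.36, limma, adjusted p = 0.75). Without SC replicate 6 it was -0.42 (95% interval -0.79 to -0.05, limma, adjusted p = 0.208, exact permutation p = 0.054). It was -0.24 without IK replicate 2 (exact permutation p = 0.47) and -0.06 without SC replicate 5. Those 2 tumors were also the extremes of 6 skeletal muscle markers, at 2.66 CPM in SC replicate 6 and 384 CPM in SC replicate 5, against 35.1 to 194 CPM in the other 10. SC replicates 6 and 5 were likewise the lowest and highest of all tumors in the endothelial marker sum, at 119 and 238 CPM. SC replicate 5 also had the highest fibroblast, fat cell, granulocyte, NK cell and T cell sums. SC replicate 6 was the lowest SC tumor in each of these, at 4770, 9.02, 25.3, 9.61 and 28.4 CPM, but IK tumors lay lower. In the macrophage marker sum SC replicate 6 was the lowest of all tumors, at 3248 CPM. SC replicate 5 was not the highest there, at 4408 CPM against 4644 CPM in IK replicate 2. The part of muscle or of any other cell type in the Slc7a2 values was not tested. With the muscle and fat markers as a covariate the difference was -0.06. The within-tumor ratio of Slc7a1 to Slc7a2 did not differ past the threshold (0.28, 95% interval -0.41 to 0.98, exact permutation p = 0.39). This ratio difference was 0.52 without SC replicate 6 (exact permutation p = 0.054) and 0.37 without IK replicate 2 (exact permutation p = 0.29).

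Among the 21 pairs of the 7 genes, Ass1 with Slc7a1 and Ass1 with Slc7a2 had an adjusted permutation p under 0.05 by Pearson correlation over the 12 tumors (0.041 and 0.047), and 0 pairs did by Spearman correlation (smallest adjusted p = 0.16). Since the tumors are spread unevenly in Ass1, the coefficients are given within groups. Ass1 and Slc7a1 ran in opposite directions, at r = -0.81 (rho = -0.37) in IK tumors and r = -0.71 (rho = -0.71) in SC tumors (exact permutation p = 0.072 and 0.11, adjusted p = 0.14 and 0.18). Without the 2 tumors farthest in Ass1 these were 0.17 and -0.74, so the first rests on IK replicate 2. In the 6 tumors of high Ass1, of which 5 are SC tumors, r was -0.88 (exact permutation p = 0.025, adjusted p = 0.075). In the 6 of low Ass1, which cover a narrow range of Ass1, r was 0.11. Ass1 and Slc7a2 ran together at r = 0.66 and 0.88 (rho = 0.14 and 0.83, exact permutation p = 0.22 and 0.021, adjusted p = 0.3 and 0.075). Without the 2 tumors farthest in Ass1 these were 0.24 and 0.54.

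**Figure D2:**
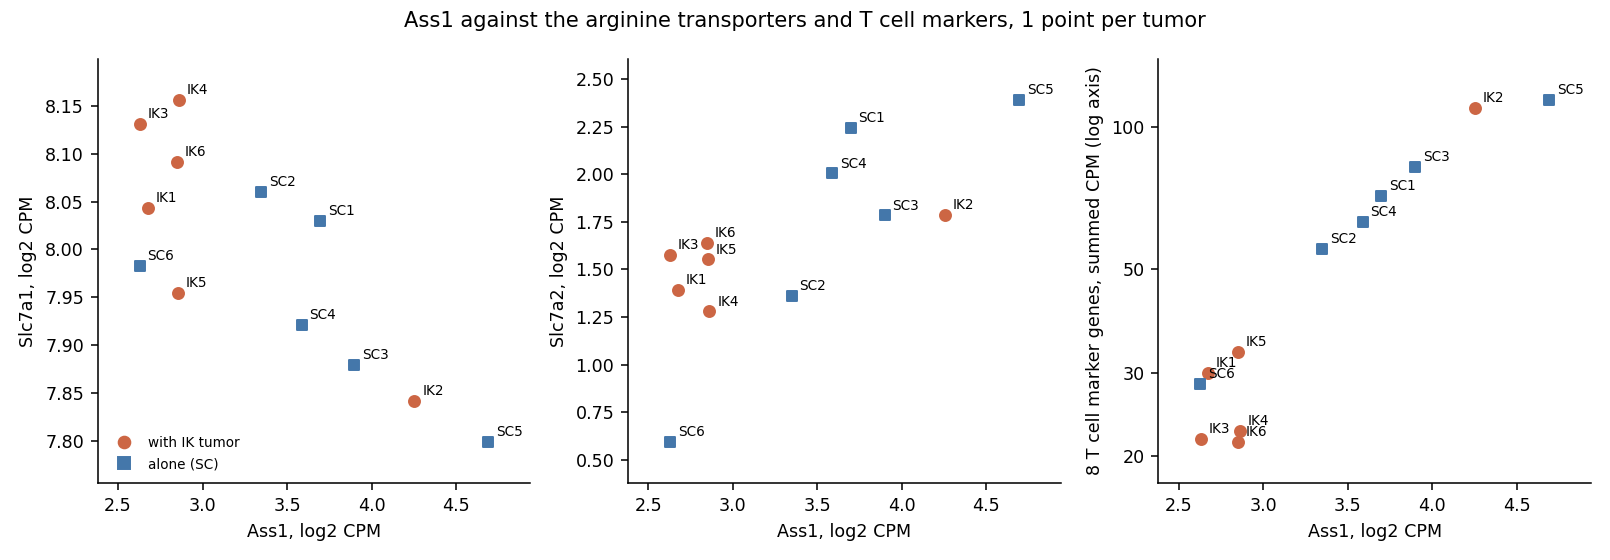
Ass1 (x axis, log2 CPM) against Slc7a1 and Slc7a2 (log2 CPM) and against the summed CPM of 8 T cell markers on a log axis, with 1 point per tumor, circles for IK and squares for SC. SC replicate 5 and IK replicate 2 have the highest Ass1, the lowest Slc7a1 and the highest T cell sums (114 and 109 CPM).

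Odc1, which makes the first polyamine from ornithine, was close to even between the groups. It had 7.42, 7.64, 7.73, 7.75, 7.64 and 7.64 log2 CPM in IK replicates 1 to 6, and 7.73, 7.60, 7.47, 7.73, 7.63 and 7.47 in SC replicates 1 to 6. Both groups covered nearly the same range. The log2 difference was 0.03 (95% interval -0.11 to 0.17, limma, adjusted p = 0.844), an interval of 0.929-fold to 1.12-fold. The ratio of Odc1 to Ass1 differed by 0.65 log2 units (95% interval -0.16 to 1.47, exact permutation p = 0.12). The difference was 0.90 without IK replicate 2 (exact permutation p = 0.011) and 0.83 without SC replicate 6 (exact permutation p = 0.065). With single tumors left out, the exact permutation p ran from 0.011 to 0.23.

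**Figure D3:**
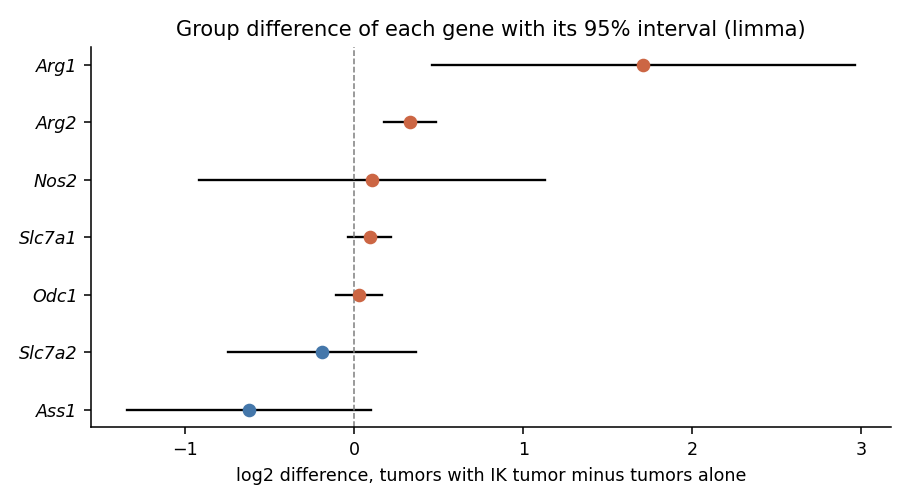
Log2 difference of each gene between IK and SC tumors (x axis; points, orange above 0 and blue below) with its 95% interval from limma (lines). The interval of Arg2 (0.17 to 0.48) lies above 0 and those of 5 genes include it, while that of Arg1 (0.46 to 2.96) is drawn for a gene that entered the table through IK tumors alone.

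Levels of different genes were compared as CPM per kilobase of exon in GENCODE M21, an annotation of a newer build than the authors used. Odc1 was the most abundant at a mean of 58.0 CPM per kb over the 12 tumors (50.4 to 63.1), followed by Slc7a1 at 22.1 (19.3 to 24.7) and Arg2 at 8.64 (6.73 to 10.6). These 3 ranges do not overlap. Ass1 at 4.67 (2.56 to 10.7) and Nos2 at 3.65 (1.14 to 7.73) overlapped with each other and with Arg2. At the bottom were Arg1 at 0.518 (0.0606 to 1.76) and Slc7a2 at 0.356 (0.165 to 0.574), which also overlapped. Mean Arg2 therefore exceeded mean Arg1 on this scale in both groups, at 9.62 ± 0.71 against 0.822 ± 0.645 with an IK tumor and 7.67 ± 0.76 against 0.215 ± 0.105 alone (SD, n = 6 each). Among 14004 genes with a length, Odc1 stood at percentile 94.2 and Slc7a2 at 5.05.

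The genes most like each arginine gene were ranked by Pearson correlation of deviations from the group means over the 12 tumors, among 13495 named genes. For Arg1 they were Ankrd37 (0.93), Rlf (0.87) and St3gal1 (0.85), whose own group differences were 0.99, 0.14 and 0.25. For Nos2 they were Sap25 (0.91), AC157931.1 (0.90) and the annexin gene Anxa2 (0.87). Arg2 was followed most closely by Gm16253 (0.85), Zfp58 (0.82) and the glucocorticoid-induced gene Tsc22d3 (0.81), whose own group differences were 0.04, -0.02 and 0.01. Odc1 had Crtap (0.95), Akap10 (0.93) and Set (0.92). The next 3 genes were added after the data were seen. Ass1 was most like Ifi211 (0.99), Smpdl3a (0.98) and the cytokine receptor chain Il2rg (0.98). Slc7a1 was most like the isoleucyl-tRNA synthetase gene Iars (0.97), Arsb (0.96) and the translation factor gene Eif3a (0.95), and Slc7a2 was most like Diaph2, Gprc5b and the sodium channel gene Scn7a (0.96 each). These coefficients are the highest of many over 12 tumors and are given as a description.

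The surrounding pathway was described from 10 lists, of which 0 genes passed over all genes (limma, smallest adjusted p = 0.431, against 0% of all genes) and a few had an unadjusted p under 0.05. The median log2 difference of all genes was 0.01, with 52.5% above 0. For arginine synthesis 2 of 7 listed genes were in the table. Asl, which completes the rebuilding of arginine, had a log2 difference of 0.00, with values of 4.66 to 4.84 in IK and 4.73 to 4.84 in SC tumors. The mitochondrial ornithine carrier Slc25a15 was at 0.12.

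The polyamine list held 13 genes, with 10 above 0, a median of 0.06 and 3 higher at an unadjusted p under 0.05, against 5.75% of all genes. These were the spermine synthase gene Sms at 0.10, the antizyme gene Oaz2, whose product restrains ornithine decarboxylase, at 0.09, and Sat1, which acetylates polyamines for breakdown, at 0.14 (limma, adjusted p = 0.431 each). All 3 are differences of at most 0.14 log2 units, and the groups overlap in each. The ornithine, proline and glutamate list had 4 of 7 above 0 and a median of 0.01, with Prodh, a proline oxidase, at -0.08, Pycrl, a proline synthesis enzyme, at 0.03 and Aldh4a1 at 0.04. For creatine 1 of 4 was above 0, with the creatine transporter Slc6a8 at 0.13, the creatine kinase Ckb at -0.36 and the creatine synthesis enzyme Gamt at -0.03.

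The nitric oxide list had 9 of 15 above 0 and a median of 0.04. In it 1 gene was higher at an unadjusted p under 0.05 (limma, 5.75% of all genes). Prkg1, a kinase activated downstream of nitric oxide, was at -0.46 and the cofactor enzyme Qdpr at 0.06. Neither of these 2 reached that threshold (unadjusted p = 0.061 and 0.11, limma). Of the other cationic amino acid transport genes 5 of 9 were above 0 and the median was 0.02. In this list 1 gene was lower at an unadjusted p under 0.05 (limma, 5.82% of all genes). That was the neutral amino acid transporter Slc7a8, with a mean log2 CPM of 4.55 ± 0.16 in IK and 4.83 ± 0.21 in SC tumors (SD, n = 6 each), a difference of -0.28. Slc7a11, the cystine transporter, was at 0.12 and Slc7a7, an arginine exporter, at -0.06. In the sensing list 4 of 5 were above 0, with the amino acid starvation kinase Eif2ak4 at -0.09 (unadjusted p = 0.0491, limma), the stress gene Ddit4 at 0.34 and Sesn2, a leucine sensor, at 0.14.

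Genes known to induce Arg1 were at a median of 0.05, with 5 of 9 above 0. Of the 13 listed, the cytokines Il4, Il13, Il10 and Il6 were not in the table, so the median does not cover them. The cytokine Lif was at 0.36 and the nuclear receptor Pparg at -0.70 (unadjusted p = 0.0201 and 0.0381, limma), and the interleukin 4 receptor Il4ra was at -0.19. Among 9 other genes of alternative activation 7 were below 0, the median was -0.11, and the lectin Clec10a was at -0.68, the ligand Pdcd1lg2 at -0.56 and the scavenger receptor Cd163 at 0.33. In this list 1 of 9 genes was lower at an unadjusted p under 0.05 (limma, 5.82% of all genes).

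Genes known to induce Nos2 had a median of -0.03, with 9 of 13 below 0. Interferon gamma (Ifng) was at -2.72, with 1 read in its lowest tumor. The endotoxin receptor Tlr4 was at 0.15. They had an unadjusted p of 0.0112 and 0.0179 (limma, adjusted p = 0.431 each), while Nos2 itself was at 0.10.

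**Figure D4:**
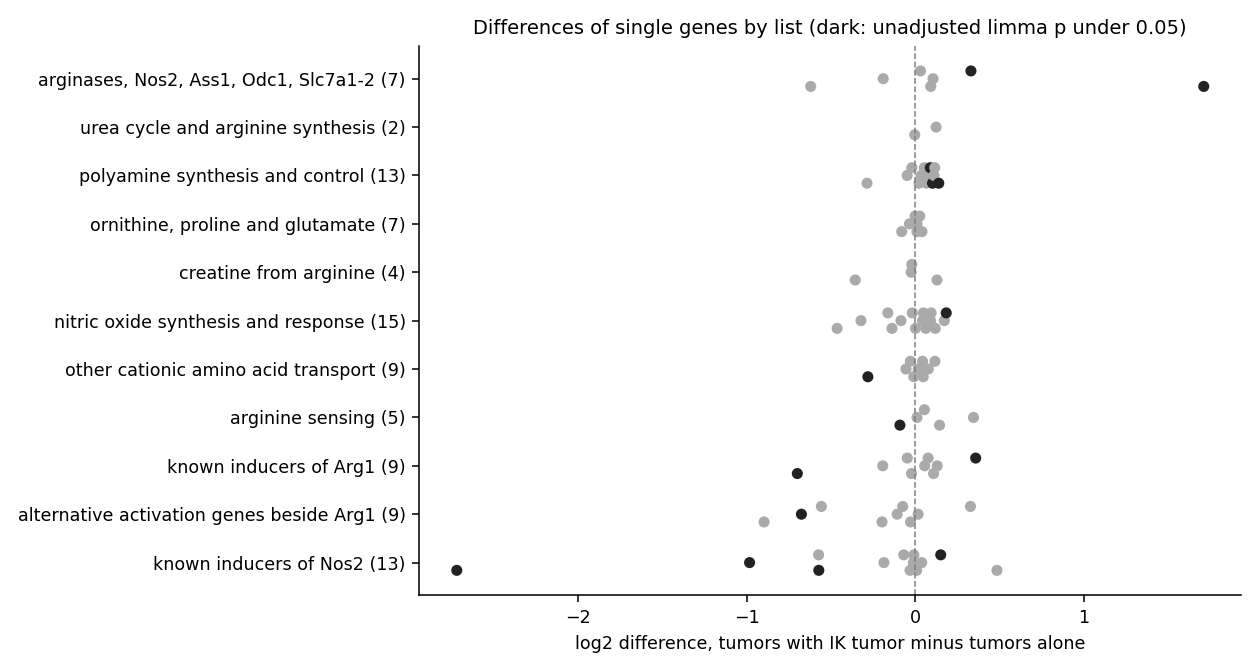
Log2 difference between IK and SC tumors (x axis) of single genes, by list (y axis, with the number of genes in the table), each point a gene and dark points those with an unadjusted limma p under 0.05. Arg1 (1.71) and Ifng (-2.72) lie farthest from 0, and most genes of arginine, polyamine and proline metabolism lie near it.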

How the data were processed

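RNA of 12 whole tumors was sequenced by the authors. Per the submitters' processing notes, CASAVA 1.8.2, TopHat 1.4.1, HTSeq and limma were used with mouse build mm9. Strand handling, the annotation release and filters are not given in the sources used here, so overlapping genes may share reads. The deposited table holds log2 values of 14496 genes. Taken off the log scale and divided by the smallest increment of their column, they gave whole reads after 0.5 was taken off for 100% of values within 0.001 reads. They were read as log2 CPM, and reads were recovered from them. Symbols matched 14004 identifiers.

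Differences were tested over all 14496 genes, with no filter, by limma 3.58.1 in R 4.3.3 (variance trend, two-sided, Benjamini-Hochberg, threshold 0.05). Single values and ratios, other than those with Arg1, were tested by two-sided exact permutation over 924 assignments, whose smallest p is 0.0022, and correlations over 12 tumors by 100000 permutations. The gene test was first tested on simulated data. Libraries of a group differed beyond counting noise in all 30 pairs (chi-square over its degrees of freedom, 13.2 to 164), so none is a repeat run of another. This cannot show that they come from separate mice. Each was counted as 1 sample. The 7 genes, the lists and the rules were chosen with earlier results of these data known. All 7 genes were named, and of each list the 3 genes of smallest unadjusted p, except that some are not reported here. Marker lists also covered NK cells, endothelium, fibroblasts, fat, red cells and epidermis. No epidermis marker was in the table. Alternatives were a filter, 3 scalings, another pseudocount, 3 variance models, a replicate block, a tissue covariate and leaving out each tumor.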

Additional observations from a re-analysis of the deposited data

Results flagged for a closer look

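Within the 22 sets of 6 tumors examined (7 genes and 4 ratios in 2 groups), 3 values stood far from the rest of their group, where chance gives about 1 in 20. Ass1 in IK replicate 2 was 4.25 log2 CPM, while the other 5 IK tumors lay at 2.63 to 2.86. The log2 ratio of Odc1 to Ass1 in the same tumor was 3.38, against 4.75 to 5.11 in the others, and follows from the same Ass1 value. Odc1 in IK replicate 1 was 7.42 log2 CPM, against 7.64 to 7.75 in the other 5 IK tumors, with 10409 reads behind it.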

How the results depend on the processing

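Over 22 alternatives (21 for Arg1, which the filter removes) Ass1, Odc1, Slc7a1 and Slc7a2 kept their direction and an adjusted p above 0.05, and Arg1 kept a direction that its entry into the table favoured. The filter, the fit without a variance trend, robust variance and the replicate block cannot move a difference, so they bear only on its p-value. Arg2 kept its direction and passed with sample weights (0.34, adjusted p = 0.0351, limma) and without IK replicate 2, ranging from 0.29 to 0.37 with single tumors left out. Nos2 ranged from -0.15 to 0.40 there and changed sign without IK replicate 1, 2 or 6 or SC replicate 6. Counts of genes past the threshold were 0 higher and 0 lower, 1 and 1 without a variance trend (Papln and an unnamed gene), 145 and 457 with sample weights, and from 0 to 47 higher and 0 to 207 lower with single tumors left out, the higher ends without IK replicate 2. Quantile normalization gave 2.37 for Arg1, and log2(CPM + 1) gave 0.80. The Arg1 to Arg2 ratio ranged from 1.06 to 1.76 with single tumors left out, and was 0.50 with log2(CPM + 1). The Nos2 to Arg1 ratio ranged from -1.90 to -1.37, and was -0.69 with log2(CPM + 1). The Odc1 to Ass1 ratio ranged from 0.45 to 0.90. The causes were not tested.

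Same-numbered tumors shared only a number: their deviations over all genes correlated at -0.27 to 0.43, and 1 of 6 IK tumors was nearest to its own number. A block for the replicate number cannot move any group difference, because every number is shared by an IK and an SC tumor. The values of Arg2 (0.33), Arg1 (1.71) and the Arg1 to Arg2 ratio (1.38) are therefore unchanged by construction. Under the block, Arg2 had an adjusted p of 0.434 (limma) and an exact sign-flip permutation p of 0.031, the smallest possible. With it, 0 genes passed. Depth limits Arg1 most, at 8 to 260 reads.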
